A study of Homo sapiens with 12 samples.

Results

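The 52 genes described here act in mitosis: the kinases and cyclins that start it, the kinetochore, the spindle and its motors, the checkpoint that delays anaphase, cytokinesis, chromosome condensation, and the transcription factors FOXM1 and MYBL2. They were chosen by gene symbol, from knowledge of their function, among the 57773 entries of the deposited expression table. Each of the 52 symbols was found, and all 52 passed the filter on low counts that left 15715 genes for testing.

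The cells were of the PEO1 line, established from a human ovarian cancer, and carried either the pLKO.1 vector as a control or the short hairpin RNA labelled shp53. Cells of both lines grew in medium with serum and puromycin and were compared untreated (0 h) and 48 h after 10 μM fulvestrant, an antagonist of the estrogen receptor, with 3 RNA sequencing libraries in each of the 4 groups. The treatment protocol names 100 pM estradiol (E2) with fulvestrant, and does not say whether the untreated cells received E2. Drug, time in culture and any difference in E2 therefore cannot be told apart, and "fulvestrant response" below means all of them together. The study is about resistance to endocrine therapy, and the design asks what the hairpin does to these cells with and without fulvestrant. Nothing in the labels ties the 3 libraries of a group to separate cultures. Their spread may be technical, and p-values measure no more than that spread. The labels also give neither the hairpin's target site nor whether a line is a clone or a pool.

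In a proliferating culture these genes are made mostly late in the cell cycle. CDK1 bound to cyclin B drives entry into mitosis, Aurora and Polo kinases build the spindle, kinetochores couple each chromosome to microtubules, and the spindle assembly checkpoint holds the anaphase-promoting complex (APC/C) back until every chromosome is attached. Transcription of the group is set by complexes built on the MuvB core: with the pocket protein p130 and E2F4 it forms the repressive DREAM complex, and with B-MYB (MYBL2) and FOXM1 it forms the activating one. The CDK inhibitor p21 (CDKN1A) favours the repressive form. Bulk RNA shows the average of a culture, so fewer cells in mitosis and less of these RNAs per cell cannot be told apart.

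Libraries held from 21581887 to 28481541 counts. Levels are given in CPM, counts scaled to equal library sizes after TMM adjustment, which allows a gene to be compared between libraries but not with another gene. Here and below, adjusted p is the Benjamini-Hochberg adjusted p of edgeR's quasi-likelihood test over all tested genes, a gene is said to have passed, risen or fallen at an adjusted p under 0.05, and SE is an approximate standard error. CDKN1A was low throughout, with 8.68 ± 0.871 CPM (SD, n = 3) in untreated and 11.4 ± 1.302 CPM in treated pLKO.1 cells, against 6.32 ± 0.705 and 6.94 ± 0.645 CPM in shp53 cells. It rose with fulvestrant in pLKO.1 cells (log2 fold change 0.40, adjusted p = 0.0348) and not past the threshold in shp53 cells (0.13, adjusted p = 0.421). The difference between these 2 responses of CDKN1A did not pass.

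In pLKO.1 cells nearly the whole group was lower with fulvestrant. Of the 52 genes, 51 fell and none rose, while over all tested genes 14.3% fell and 13.4% rose. The median log2 fold change of the 52 was -0.63, with a range from -0.87 to -0.28, and the median of all tested genes was -0.01. In 51 of the 52 the highest treated library lay below the lowest untreated one, which was the case for 19.4% of all tested genes. The exception on both counts was INCENP, described with its complex below. Summed over the 52 genes, the level was 9378 ± 371 CPM (SD, n = 3) in untreated and 6175 ± 137 CPM in treated pLKO.1 libraries, a share of 0.933% of all counts against 0.626%.

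In shp53 cells the group was lower with fulvestrant too. All 52 fell, against 19.6% of all tested genes that fell and 21.3% that rose there, and the groups of libraries did not overlap for any of the 52, against 29.7% of all genes without overlap in that direction. The median log2 fold change was -0.86, with a range from -1.40 to -0.34, and that of all genes was -0.01. The summed level went from 9384 ± 313 CPM in untreated to 5298 ± 27.96 CPM in treated shp53 libraries, or from 0.929% to 0.530% of counts. The fulvestrant contrasts of the pLKO.1 and shp53 lines share no library. Over the 52 genes their log2 fold changes had a Pearson r of 0.794 and a Spearman rho of 0.783, given as a description, since the genes share libraries and, in part, GC content.

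**Figure D1:**
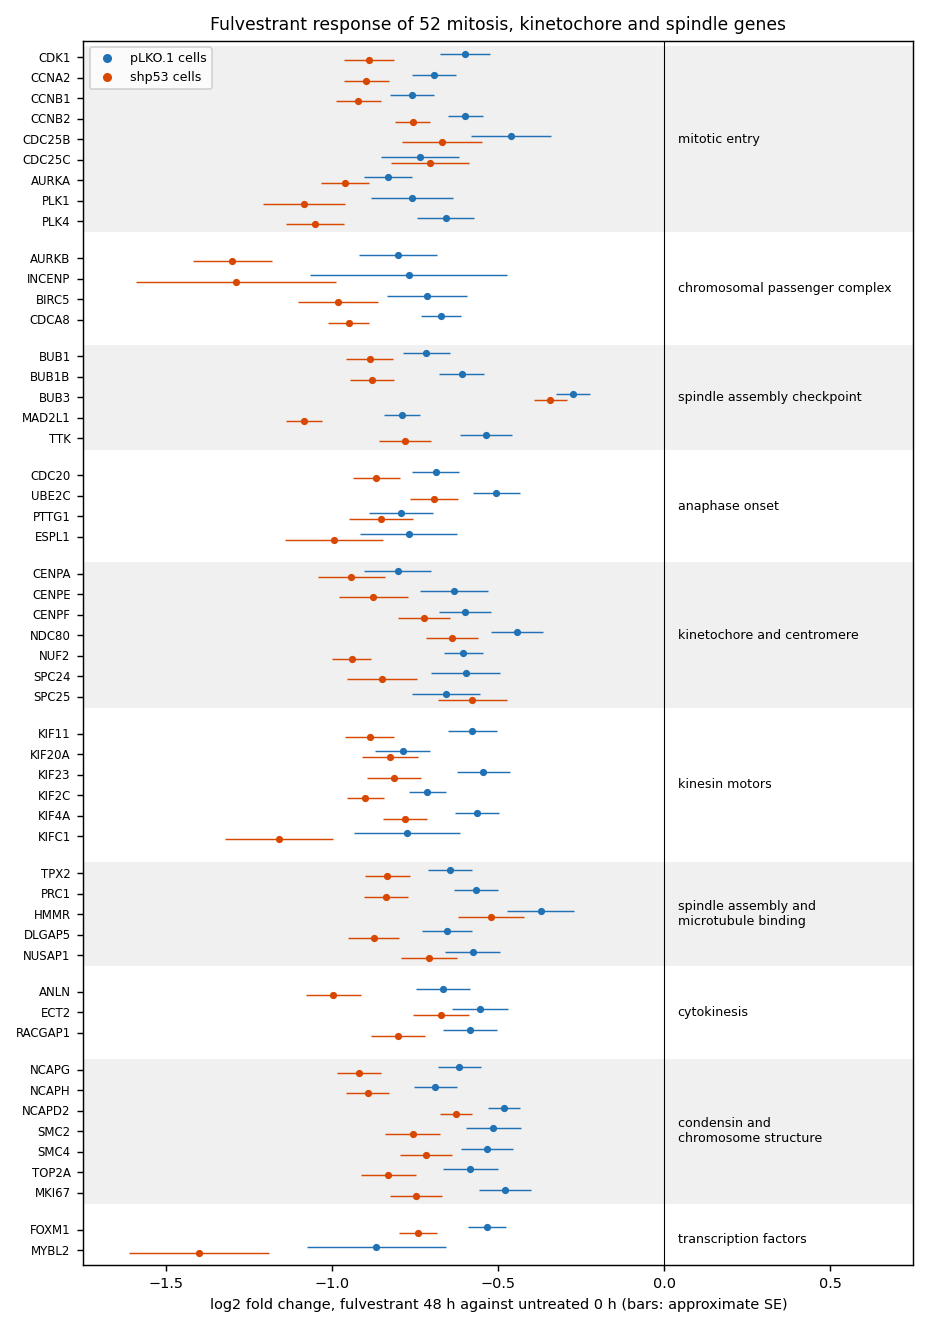
Each point is the log2 fold change of 1 gene, fulvestrant at 48 h against untreated at 0 h, in pLKO.1 cells (blue) and shp53 cells (orange), with bars for the approximate SE and shading for the 10 functional classes. Every point lies below 0, from -0.28 for BUB3 in pLKO.1 cells to -1.40 for MYBL2 in shp53 cells.

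The promoter sequences of 6 genes are given. Of the named genes with a match to the CHR element, they had the smallest p for fulvestrant in pLKO.1 cells. Holding the element was thus a condition of the choice. MuvB complexes bind late cell cycle promoters through the CHR element, and their part in the fall of the group was not tested. The CHR element was searched as TTTGAA or TTCGAA on either strand (TTTGAA reads TTCAAA on the other strand), and the CCAAT box, bound by NF-Y, as CCAAT or its complement ATTGG. The sequences are from RefSeq on GRCh38.p14, cover 200 bases before the annotated start and 30 bases from it, and are written 5′ to 3′ on the gene's strand with every match in capitals. They lie at chr4:120066819-120067048 on the minus strand for MAD2L1, chr15:59104946-59105175 on the plus strand for CCNB2, chr1:37692316-37692545 on the plus strand for CDCA8, chr1:163321754-163321983 on the plus strand for NUF2, chr2:110678034-110678263 on the minus strand for BUB1 and chr1:43358781-43359010 on the plus strand for CDC20.
MAD2L1: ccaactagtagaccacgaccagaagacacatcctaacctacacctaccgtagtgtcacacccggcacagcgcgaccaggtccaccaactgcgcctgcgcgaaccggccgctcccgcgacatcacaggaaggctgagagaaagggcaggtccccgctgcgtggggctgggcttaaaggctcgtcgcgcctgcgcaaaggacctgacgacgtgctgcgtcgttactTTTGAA
CCNB2: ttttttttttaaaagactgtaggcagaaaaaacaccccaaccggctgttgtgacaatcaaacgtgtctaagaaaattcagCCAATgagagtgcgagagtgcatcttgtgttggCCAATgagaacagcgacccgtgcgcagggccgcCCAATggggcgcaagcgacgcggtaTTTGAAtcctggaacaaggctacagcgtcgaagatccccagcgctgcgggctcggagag
CDCA8: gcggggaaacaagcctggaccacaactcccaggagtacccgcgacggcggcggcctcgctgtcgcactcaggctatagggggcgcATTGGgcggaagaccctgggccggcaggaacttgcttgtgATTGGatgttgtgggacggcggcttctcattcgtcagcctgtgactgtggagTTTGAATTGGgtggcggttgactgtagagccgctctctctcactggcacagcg
NUF2: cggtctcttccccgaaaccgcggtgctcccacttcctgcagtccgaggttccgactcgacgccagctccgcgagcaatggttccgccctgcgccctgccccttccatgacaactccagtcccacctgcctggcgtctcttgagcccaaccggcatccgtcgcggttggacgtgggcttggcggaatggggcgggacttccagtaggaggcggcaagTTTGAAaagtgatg
BUB1: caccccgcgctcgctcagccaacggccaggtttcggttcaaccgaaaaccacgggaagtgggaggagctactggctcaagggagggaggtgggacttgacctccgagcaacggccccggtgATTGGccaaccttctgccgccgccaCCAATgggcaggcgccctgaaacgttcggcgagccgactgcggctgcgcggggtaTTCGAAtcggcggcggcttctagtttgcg
CDC20: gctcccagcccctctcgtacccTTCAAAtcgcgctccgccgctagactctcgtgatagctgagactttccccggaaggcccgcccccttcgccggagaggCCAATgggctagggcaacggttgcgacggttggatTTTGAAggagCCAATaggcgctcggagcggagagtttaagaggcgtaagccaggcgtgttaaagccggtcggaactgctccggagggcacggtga
CCNB2 shows the arrangement most clearly, with 3 CCAAT boxes in the printed stretch followed by 1 CHR match whose first base lies at -29 relative to the start. In CDCA8 the CHR match overlaps a CCAAT box on the other strand. In MAD2L1, NUF2 and BUB1 the match lies in the first transcribed bases, and that of BUB1 has the TTCGAA form.

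Promoter windows of 250 bases before to 50 after the start were found for 44 of the 52 genes, using the first listed start of each gene. AURKA, BIRC5, BUB3, TTK, UBE2C, TPX2, RACGAP1 and FOXM1 were not matched. The CHR element was present in 32 of the 44 (72.7%), against 16.6% of the 27305 genes with a window in the table, and the CCAAT box in 31 (70.5%) against 35.7%. Both were present in 24 (54.5%) against 6.58%, and 20 (45.5%) held 2 or more CCAAT boxes against 11.3%. A CHR match beginning between -60 and 0 was present in 18 (40.9%) against 3.19%. In pLKO.1 cells the median log2 fold change with fulvestrant was -0.60 for the 32 genes with a CHR match and -0.73 for the 12 without. In shp53 cells these medians were -0.87 and -0.89. For the CCAAT box they were -0.66 with a match and -0.62 without in pLKO.1 cells, and -0.87 and -0.88 in shp53 cells. Whether the response depends on either motif was not tested. A match describes the letters of the window and is not a binding site shown by these data.

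Mitotic entry was covered by 9 genes, all of which fell in both lines, with median log2 fold changes of -0.69 in pLKO.1 and -0.90 in shp53 cells. CCNB1, cyclin B1, the activating partner of CDK1, stood at 332, 309 and 285 CPM in the untreated and 177, 175 and 195 CPM in the treated pLKO.1 libraries, and at 317, 297 and 283 CPM in the untreated and 157, 158 and 158 CPM in the treated shp53 libraries. No treated library reached any untreated one in either line, and the treated shp53 libraries were the lowest of all. CCNB1 fell by a log2 fold change of -0.76 (adjusted p = 2.27e-05, SE 0.07) in pLKO.1 and -0.92 (adjusted p = 2.52e-06, SE 0.07) in shp53 cells. CDK1, the kinase that drives entry, stood at 155, 149 and 135 CPM in the untreated and 89.6, 96.03 and 104 CPM in the treated pLKO.1 libraries, and at 154, 139 and 139 CPM in the untreated and 74.1, 82.3 and 77.1 CPM in the treated shp53 libraries. The treated groups of the lines did not overlap for CDK1, whose log2 fold change was -0.60 in pLKO.1 and -0.89 in shp53 cells. CCNB2, the second B-type cyclin, whose promoter is printed above, went from 72.9 ± 0.908 to 48.1 ± 1.73 CPM in pLKO.1 cells, a log2 fold change of -0.60.

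Among the kinases of this class, AURKA, Aurora A, which matures centrosomes, had the second largest fall of the 52 in pLKO.1 cells. Its level was 135, 122 and 116 CPM in untreated and 67.4, 69.02 and 73.4 CPM in treated pLKO.1 libraries, so that 56.2% of the untreated mean was left (log2 fold change -0.83, adjusted p = 1.98e-05, SE 0.07). PLK1, the Polo kinase needed for spindle assembly, was more uneven across the treated pLKO.1 libraries, at 108, 89.1 and 74.5 CPM against 146, 151 and 163 CPM untreated, and fell by a log2 fold change of -0.76 there and -1.09 in shp53 cells. PLK4, the kinase that starts centriole duplication, was tight within every treated group. It stood at 30.4, 29.98 and 26.9 CPM in the untreated and 18.8, 18.1 and 18.4 CPM in the treated pLKO.1 libraries, and at 30.96, 24.6 and 27.04 CPM in the untreated and 13.7, 13.4 and 12.7 CPM in the treated shp53 libraries. The treated shp53 libraries lay below the treated pLKO.1 libraries without overlap, while the untreated libraries of the lines overlapped. CDC25B, a phosphatase that activates CDK1, had the smallest fall of the class, from 207, 230.1 and 239.7 to 189, 168 and 134 CPM in pLKO.1 cells (log2 fold change -0.46, adjusted p = 0.0145, SE 0.12). That call was lost without untreated pLKO.1 library 3 (adjusted p = 0.0525) and when only the 6 pLKO.1 libraries were fitted (adjusted p = 0.0563).

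The chromosomal passenger complex, which corrects wrong attachments and guides cytokinesis, is Aurora B with INCENP, survivin (BIRC5) and borealin (CDCA8). Of its 4 genes, 3 fell in pLKO.1 and 4 in shp53 cells, with median log2 fold changes of -0.74 and -1.14. AURKB, the kinase, stood at 47.7, 50.4 and 56.9 CPM in the untreated and 32.8, 31.6 and 24.5 CPM in the treated pLKO.1 libraries, and at 49.99, 54.1 and 53.1 CPM in the untreated and 21.9, 18.7 and 23.2 CPM in the treated shp53 libraries. Each treated group lay below its untreated group, and all 3 treated shp53 libraries lay below all 3 treated pLKO.1 libraries. The log2 fold change of AURKB with fulvestrant was -0.80 (adjusted p = 0.000603, SE 0.12) in pLKO.1 and -1.301 (adjusted p = 1.21e-05, SE 0.12) in shp53 cells. INCENP, the scaffold, stood at 64.1, 87.98 and 99.9 CPM in the untreated and 64.2, 55.1 and 28.5 CPM in the treated pLKO.1 libraries, and at 68.1, 81.3 and 85.1 CPM in the untreated and 33.7, 23.1 and 39.2 CPM in the treated shp53 libraries. In pLKO.1 cells treated library 1 reached the lowest untreated library, and the log2 fold change of -0.77 had an SE of 0.30 and an adjusted p of 0.083. It passed in pLKO.1 cells with a GC correction (-0.69, adjusted p = 0.000474), with DESeq2 (adjusted p = 0.0173) and without treated library 1 (adjusted p = 0.0431). It passed in shp53 cells, at -1.29 (adjusted p = 0.00669, SE 0.30). CDCA8 was the tightest of the 4, from 127, 118 and 117 to 72.01, 73.5 and 81.6 CPM in pLKO.1 cells (log2 fold change -0.67, adjusted p = 2.61e-05).

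Of the 5 checkpoint genes all fell in both lines, with medians of -0.61 and -0.88. MAD2L1, MAD2, the protein that inhibits CDC20 at unattached kinetochores, had the smallest p of the class in both lines. It stood at 71.7, 68.4 and 66.2 CPM in the untreated and 39.4, 38.6 and 41.2 CPM in the treated pLKO.1 libraries, and at 70.6, 66.4 and 64.7 CPM in the untreated and 32.5, 31.2 and 31.4 CPM in the treated shp53 libraries. The 4 groups separated into untreated, treated pLKO.1 and treated shp53 libraries with no overlap between these levels, and 57.8% of the untreated mean was left in pLKO.1 and 47.1% in shp53 cells. The log2 fold change was -0.79 (adjusted p = 5.37e-06, SE 0.05) and -1.08 (adjusted p = 3.28e-07, SE 0.06), respectively. BUB3, which brings BUB1 and BUBR1 to kinetochores, had the smallest fall of the 52 genes in both lines. Its level went from 162, 154 and 148 to 128, 129 and 127 CPM in pLKO.1 and from 150.4, 153 and 145 to 123, 112 and 119 CPM in shp53 cells, a log2 fold change of -0.28 (adjusted p = 0.00223, SE 0.05) and -0.34 (adjusted p = 0.000305, SE 0.05). The fall of BUB3 was small but still larger than the spread between libraries. With a correction for GC content that of CDC25B in shp53 cells was as small (-0.42 against -0.43). BUB1, the checkpoint kinase that recruits other components, went from 124 ± 9.39 to 75.7 ± 5.67 CPM in pLKO.1 and from 126 ± 5.81 to 68.04 ± 1.91 CPM in shp53 cells.

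Control of anaphase onset was covered by 4 genes of the group, which fell in both lines with medians of -0.73 and -0.86. CDC20, which activates the APC/C, stood at 209, 211 and 214 CPM in the untreated and 141, 133 and 119.6 CPM in the treated pLKO.1 libraries, and at 204, 202 and 201 CPM in the untreated and 115, 100.2 and 117 CPM in the treated shp53 libraries. Within each line the treated libraries lay well below the untreated ones, and the log2 fold change was -0.69 in pLKO.1 and -0.87 in shp53 cells. ESPL1, separase, the protease that opens cohesin, went from 73.1, 82.1 and 82.5 to 51.2, 51.6 and 36.6 CPM in pLKO.1 cells (log2 fold change -0.77, adjusted p = 0.00295, SE 0.15). PTTG1, securin, the inhibitor of separase, went from 85.7 ± 6.63 to 49.4 ± 6.22 CPM. Near-identical copies of PTTG1 exist in the genome and the counting divides reads between such copies, so its level is less certain than the others.

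The 7 kinetochore and centromere genes all fell, with medians of -0.61 in pLKO.1 and -0.85 in shp53 cells. NUF2, a subunit of the NDC80 complex that binds microtubules, stood at 59.7, 55.2 and 55.9 CPM in the untreated and 36.2, 37.7 and 38.3 CPM in the treated pLKO.1 libraries, and at 56.8, 56.00 and 57.1 CPM in the untreated and 27.8, 31.4 and 29.2 CPM in the treated shp53 libraries. The groups of NUF2 formed the same 3 levels as those of MAD2L1, without overlap, and the log2 fold change was -0.61 (adjusted p = 3.96e-05, SE 0.06) in pLKO.1 and -0.94 (adjusted p = 9.01e-07, SE 0.06) in shp53 cells. Its partner NDC80 fell less, by -0.44 and -0.64, from 46.8, 43.00 and 40.5 to 30.3, 31.2 and 34.4 CPM in pLKO.1 cells. SPC25, which anchors the complex to the kinetochore, was with CDC25C 1 of only 2 genes of the 52 whose fall was not larger in shp53 cells: 63.3% of the untreated level was left in pLKO.1 and 66.97% in shp53 cells, with log2 fold changes of -0.66 and -0.58. CENPA, the histone H3 variant of centromeres, went from 34.7 ± 2.74 to 19.9 ± 2.55 CPM in pLKO.1 and from 35.7 ± 2.45 to 18.6 ± 1.13 CPM in shp53 cells.

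All 6 kinesins and all 5 spindle assembly genes fell in both lines, with medians of -0.65 and -0.86 for the kinesins and -0.58 and -0.83 for the spindle genes. KIF2C, a kinesin that takes tubulin off microtubule ends, had the smallest p of its class and stood at 176, 167 and 159 CPM in the untreated and 99.2, 101 and 105 CPM in the treated pLKO.1 libraries, and at 169.8, 158 and 152 CPM in the untreated and 84.4, 88.6 and 84.3 CPM in the treated shp53 libraries. Treated shp53 libraries were the lowest for KIF2C, with no overlap with treated pLKO.1 libraries, and the log2 fold change was -0.71 and -0.90. KIFC1, a motor that clusters centrosomes, was less even, at 43.2, 42.4 and 31.4 CPM in treated against 59.9, 67.1 and 73.3 CPM in untreated pLKO.1 libraries, a log2 fold change of -0.78 there and -1.16 in shp53 cells. TPX2, which activates Aurora A on the spindle, went from 379, 344 and 341 to 213, 225 and 243 CPM in pLKO.1 cells (log2 fold change -0.65, adjusted p = 6.46e-05, SE 0.07). HMMR, which links the spindle to centrosomes, fell least in its class, from 95.1, 83.5 and 82.3 to 62.6, 65.4 and 73.5 CPM (log2 fold change -0.37, adjusted p = 0.0173, SE 0.10). The call of HMMR was lost without untreated pLKO.1 library 1 (adjusted p = 0.0638), treated library 1 (0.0868) or treated library 2 (0.104). PRC1, which bundles the microtubules of the central spindle, fell by a log2 fold change of -0.57 in pLKO.1 and -0.84 in shp53 cells.

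The 3 cytokinesis genes and the 7 genes of chromosome condensation fell in both lines, with medians of -0.59 and -0.80 for cytokinesis and -0.54 and -0.76 for condensation. ANLN, anillin, which organises the contractile ring, stood at 382, 335 and 336 CPM in the untreated and 203, 215 and 245 CPM in the treated pLKO.1 libraries, and at 376, 357 and 339 CPM in the untreated and 179, 189 and 169 CPM in the treated shp53 libraries. Treated shp53 libraries were the lowest, and the log2 fold change of ANLN was -0.67 in pLKO.1 and -0.997 in shp53 cells. ECT2, the exchange factor that switches on RhoA at the cleavage site, fell by -0.55 and -0.67. NCAPH, a condensin I subunit, went from 112, 96.9 and 98.8 to 61.01, 64.7 and 64.8 CPM in pLKO.1 and from 96.8, 93.6 and 86.3 to 48.8, 49.9 and 50.1 CPM in shp53 cells. TOP2A, the topoisomerase that untangles sister chromatids, stood at 771, 714 and 677 CPM in the untreated and 438, 469 and 534 CPM in the treated pLKO.1 libraries, and at 753, 695 and 678 CPM in the untreated and 386, 427 and 381 CPM in the treated shp53 libraries. The log2 fold change of TOP2A was -0.58 (adjusted p = 0.000479, SE 0.08) in pLKO.1 and -0.83 (adjusted p = 2.17e-05, SE 0.08) in shp53 cells. MKI67, the gene of the proliferation marker Ki-67, which coats mitotic chromosomes, went from 568 ± 31.8 to 407 ± 35.6 CPM and from 587 ± 46.4 to 349.6 ± 15.9 CPM, log2 fold changes of -0.48 and -0.75.

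The 2 transcription factors of the group fell in both lines. FOXM1, the forkhead factor that activates late cell cycle genes, stood at 814, 766 and 759.9 CPM in the untreated and 561, 541 and 514 CPM in the treated pLKO.1 libraries, and at 836, 831 and 784 CPM in the untreated and 507, 458 and 501 CPM in the treated shp53 libraries. No treated library overlapped an untreated one, and the log2 fold change was -0.53 (adjusted p = 7.93e-05, SE 0.06) in pLKO.1 and -0.74 (adjusted p = 3.6e-06, SE 0.06) in shp53 cells. MYBL2, B-MYB, had the largest fall of the 52 in both lines as fitted, and not with a correction for GC content, described below. It stood at 344, 403 and 414 CPM in the untreated and 255, 229.7 and 152 CPM in the treated pLKO.1 libraries, and at 363, 407 and 399.6 CPM in the untreated and 168, 106 and 169 CPM in the treated shp53 libraries. The treated libraries of MYBL2 were spread widely, with pLKO.1 library 3 and shp53 library 2 lowest in their groups, and the log2 fold change was -0.87 (adjusted p = 0.0119, SE 0.21) in pLKO.1 and -1.40 (adjusted p = 0.000528, SE 0.21) in shp53 cells. With the GC correction MYBL2 fell by -0.76 and -1.14, and the largest falls were those of AURKA in pLKO.1 (-0.85) and MAD2L1 in shp53 cells (-1.17).

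**Figure D2:**
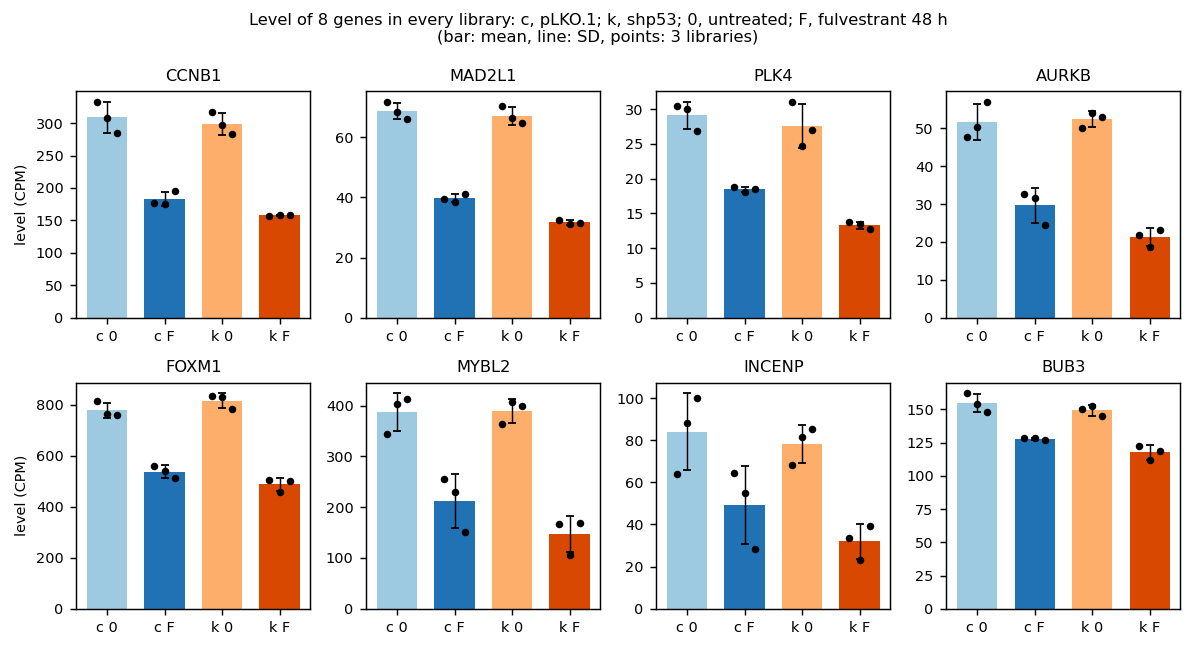
Levels in CPM of 8 genes in all 12 libraries; bars are means, lines SD and points the 3 libraries of pLKO.1 (c) or shp53 (k) cells, untreated (0) or with fulvestrant for 48 h (F). MAD2L1 and PLK4 form separate treated levels in the lines, MYBL2 and INCENP vary widely within treated groups, and BUB3 falls least.

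Levels of different genes were compared only per length, as CPM per kilobase of a transcript listed for the gene and found in GENCODE 29. That transcript need not be the first listed. In untreated pLKO.1 cells FOXM1 was the highest of the 52 at 231 CPM per kilobase, followed by MYBL2 at 147 and CCNB1 at 142. The lowest were CDC25C at 7.01, CENPE at 7.24 and PLK4 at 7.57 CPM per kilobase. These values depend on the transcript chosen, since the length of the transcripts the cells used is not known.

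Between the untreated lines no difference was detected for any of the 52 genes. None passed in either direction, while in this comparison 1.02% of all tested genes rose and 0.566% fell. At an unadjusted p under 0.05 there were 3 of the 52, against 1525 of all 15715 tested genes. DESeq2 called 0 of the 52 and gave 2 at that level. The median log2 fold change was -0.01, as it was over all tested genes, and the range was -0.26 to 0.16. The summed level of 9384 ± 313 CPM in untreated shp53 libraries differed from the 9378 ± 371 CPM in untreated pLKO.1 libraries by less than the spread within either group. The largest differences were those of SPC25, with 17.7, 15.8 and 14.3 against 20.2, 19.8 and 17.2 CPM (log2 fold change -0.26, adjusted p = 0.387, SE 0.10), and KIF20A, a kinesin of the central spindle, with 91.3, 80.9 and 83.1 against 112, 96.8 and 96.4 CPM (log2 fold change -0.26, adjusted p = 0.234, SE 0.08). CDK1 (-0.02, SE 0.07), MAD2L1 (-0.03, SE 0.05) and FOXM1 (0.07, SE 0.06) lay close to 0. After a correction for the GC content of transcripts 3 genes passed as lower, SPC25, KIF20A and NCAPH.

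Under fulvestrant part of the group differed between the lines. Of the 52 genes 15 were lower and none higher in treated shp53 than in treated pLKO.1 cells, while of all tested genes 2.74% were lower and 4.28% higher. All 52 log2 fold changes were below 0, with a median of -0.24 and a range from -0.62 to -0.05, against a median of 0.00 over all genes. An unadjusted p under 0.05 was found for 35 of the 52, and for 3342 of all 15715 tested genes in either direction. In 31 of the 52 the 3 shp53 libraries lay below the 3 pLKO.1 libraries without overlap, as in 8.29% of all tested genes. The 15 came from most classes: CDK1, CCNA2 and PLK4 of mitotic entry, AURKB and CDCA8 of the passenger complex, BUB1B, MAD2L1 and TTK of the checkpoint, NUF2, the kinesins KIF11 and KIF2C, TPX2, ANLN, and the condensin subunits NCAPG and NCAPH.

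**Figure D3:**
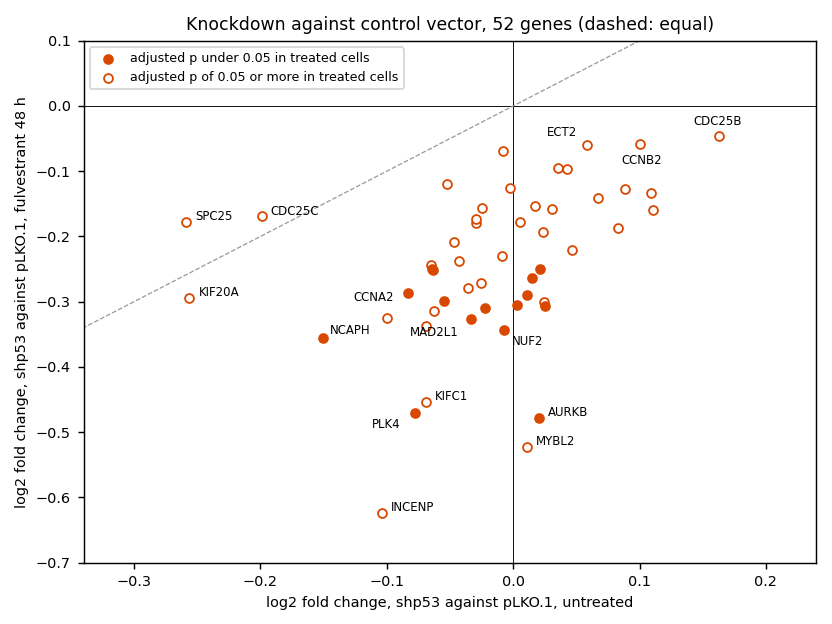
Each point is 1 of the 52 genes, placed by the log2 fold change of shp53 against pLKO.1 cells when untreated (horizontal) and after 48 h of fulvestrant (vertical), filled where it passed in treated cells. The points lie on both sides of 0 along the horizontal axis and all below 0 along the vertical one.

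The smallest adjusted p-values among the 15 were those of MAD2L1, at -0.33 (adjusted p = 0.00543, SE 0.05), NUF2, at -0.34 (adjusted p = 0.00585, SE 0.06), NCAPH, at -0.36 (adjusted p = 0.00856, SE 0.06), and PLK4, at -0.47 (adjusted p = 0.00922, SE 0.09). The values of MAD2L1, NUF2 and PLK4 in every library are given above, and NCAPH stood at 48.8, 49.9 and 50.1 CPM in treated shp53 and 61.01, 64.7 and 64.8 CPM in treated pLKO.1 libraries. AURKB had the largest difference among those that passed (log2 fold change -0.48, adjusted p = 0.0364, SE 0.12). INCENP and MYBL2 had larger differences that did not pass, at -0.62 (adjusted p = 0.27, SE 0.30) and -0.52 (adjusted p = 0.182, SE 0.21). CCNB1 (-0.21, adjusted p = 0.0927), CDC20 (-0.24, adjusted p = 0.0634) and TOP2A (-0.27, adjusted p = 0.0771) lay on the same side without passing. AURKA (-0.09, SE 0.07), CDC25B (-0.05, SE 0.12), ECT2 (-0.06, SE 0.08) and PTTG1 (-0.07, SE 0.10) differed little.

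The count of 15 depended on single libraries and on the fit. It was 4 with the library number as a replicate block (MAD2L1, NUF2, NCAPH and PLK4), 2 when only the 6 treated libraries were fitted and 8 without the filter on low counts. When 1 of the 12 libraries was left out the count ranged from 2 to 16. It was 2, 5 and 4 without treated shp53 library 1, 2 or 3, 3 without treated pLKO.1 library 2 and 8 without untreated library 2 of either line, and PLK4 and MAD2L1 passed in all 12 of those fits. NCAPH passed in 11, NUF2 and KIF2C in 9, CDCA8 and NCAPG in 8, CCNA2 in 7, CDK1 and KIF11 in 5, AURKB in 4, ANLN in 2, TTK and TPX2 in 1 and BUB1B in 0 of the 12. Libraries differed in how levels depended on the GC content of transcripts: treated pLKO.1 library 3 and treated shp53 library 2 favoured transcripts of low GC content (Spearman rho over genes -0.616 and -0.55) and treated pLKO.1 library 1 those of high GC content (0.557). The 52 genes had a median GC content of 45.3%, from 35.4% to 59.9%, against 49.0% for all tested genes. With a GC correction 44 of the 52 were lower in treated shp53 cells, all 15 among them, at a median of -0.28. The same correction raised the number of all tested genes that passed from 672 higher and 431 lower to 1486 higher and 1687 lower. CDC25B, 1 of the genes of highest GC content (59.3%), then changed sign, from -0.05 to 0.12, passing in neither fit. Without treated pLKO.1 library 3 the median difference of the 52 was -0.15, and PTTG1 (0.07), CENPA (0.03) and ECT2 (0.05) lay above 0 without passing.

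**Figure D4:**
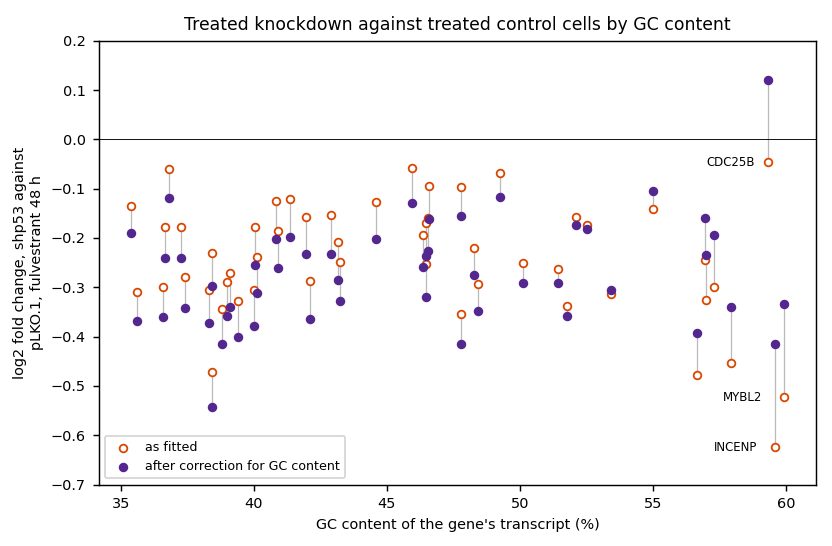
For each of the 52 genes the log2 fold change of shp53 against pLKO.1 cells under fulvestrant is plotted against the GC content of its transcript, as fitted (open) and after correction (filled), joined by a line. Correction moves genes of low GC content down and INCENP and MYBL2 up, and CDC25B crosses 0.

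Whether the fulvestrant response itself differed between the lines was tested as an interaction. The response was larger in shp53 cells for 50 of the 52 genes, with a median difference of log2 fold changes of -0.22, but none of the 52 passed, while 0.0127% of all tested genes passed in each direction. At an unadjusted p under 0.05 there were 17 of the 52, where 7.45% of all genes lay. DESeq2 called none of the 52 and gave 13 at that level, where 4.31% of all genes lay in its fit. The smallest p-values were those of NUF2 (-0.34, SE 0.08, adjusted p = 0.242), MAD2L1 (-0.29, SE 0.08, adjusted p = 0.271) and CDCA8 (-0.28, SE 0.09, adjusted p = 0.377). PLK4 (-0.39, SE 0.12) and AURKB (-0.50, SE 0.17) had larger differences, and MYBL2 the largest (-0.53, SE 0.29, adjusted p = 0.781). After the GC correction 31 of the 52 passed, among them NUF2 (-0.40, adjusted p = 0.00881), CDK1 (-0.34, adjusted p = 0.00189) and TOP2A (-0.30, adjusted p = 0.000817), while 616 of all tested genes did. A larger response in shp53 cells thus passed the threshold with that correction and not without it. Without treated pLKO.1 library 3 the median difference of the responses was -0.13.

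**Figure D5:**
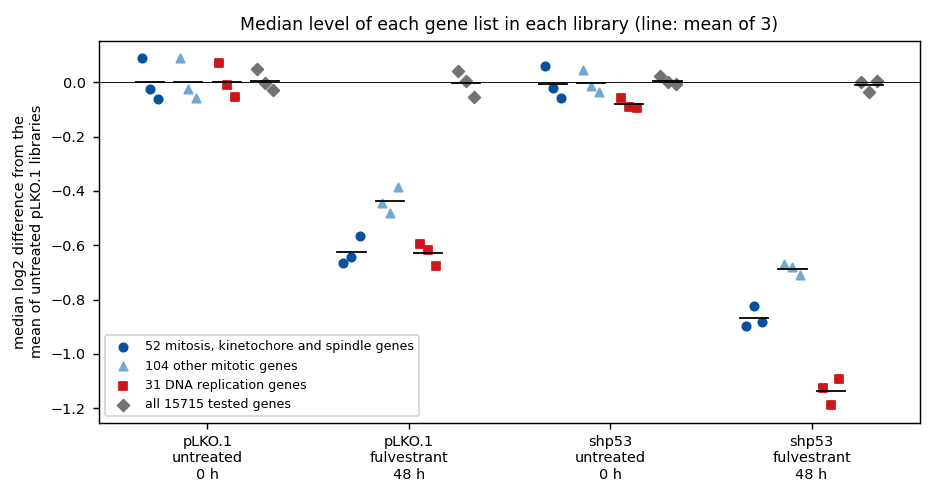
For each library, the median log2 difference from the untreated pLKO.1 mean is shown for the 52 genes, 104 other mitotic genes, 31 DNA replication genes and all 15715 tested genes, with lines for the mean of 3 libraries. The 52 genes lie between -0.67 and -0.57 in treated pLKO.1 and between -0.90 and -0.83 in treated shp53 libraries.

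Other mitotic genes, as listed here, showed the fall less uniformly. The lists also hold genes with other roles, such as KIF3B, and the part of their make-up in this was not tested. Of 104 genes in 6 lists, 65 fell and none rose in pLKO.1 cells with fulvestrant, at a median of -0.46, and in shp53 cells the median per list ran from -0.81 for kinases and regulators to -0.40 for cytokinesis genes. Among 29 further kinetochore and centromere genes 22 fell in pLKO.1 and 25 in shp53 cells. HJURP, the chaperone that loads CENPA, had the smallest p in pLKO.1 cells and went from 104, 95.9 and 101 to 55.9, 51.8 and 53.97 CPM in pLKO.1 cells (log2 fold change -0.90, adjusted p = 1.39e-05, SE 0.07). Of 24 further kinesins and spindle genes 18 fell in pLKO.1 cells, KNSTRN, a spindle protein of the kinetochore, with the smallest p (log2 fold change -0.80, adjusted p = 2.64e-06, SE 0.05), and in shp53 cells 19 fell and 1, KIF3B, a motor of intracellular transport, rose. Checkpoint and APC/C genes fell in 7 and 8 of 18 cases. TRIP13, the ATPase that disassembles checkpoint complexes, had the smallest p among them (log2 fold change -0.82, adjusted p = 7.32e-06, SE 0.06 in pLKO.1 cells). Cohesin and condensin II genes fell in 8 and 9 of 14, NCAPD3 of condensin II with the smallest p (log2 fold change -0.66, adjusted p = 6.15e-06, SE 0.05), and NIPBL, the cohesin loader, rose in shp53 cells. Further cytokinesis genes fell in 3 and 4 of 8, and further kinases and regulators in 7 and 9 of 11. In treated cells 17 of the 104 were lower and none higher in shp53 than in pLKO.1 libraries. SPDL1, which brings dynein to kinetochores, was the only one of the 104 to pass between untreated lines, at 63.3, 58.8 and 58.1 against 90.8, 83.3 and 81.1 CPM (log2 fold change -0.50, adjusted p = 0.00885, SE 0.08).

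Genes of DNA replication, made earlier in the cycle, fell alongside, in 28 of 31 cases in pLKO.1 and 30 of 31 in shp53 cells, with medians of -0.64 and -1.06. In treated cells 22 of the 31 were lower in shp53 than in pLKO.1 libraries, at a median of -0.51. By library, the replication median lay between -0.68 and -0.59 in treated pLKO.1 cells, where that of the 52 mitotic genes lay between -0.67 and -0.57, and between -1.19 and -1.09 in treated shp53 cells, where that of the mitotic genes lay between -0.90 and -0.83. The lists thus overlapped in treated pLKO.1 libraries and separated in treated shp53 libraries. That separation was not tested. The medians carry no GC correction. Over tested genes of known GC content, log2 fold changes with fulvestrant had a Spearman rho with GC content of -0.15 in pLKO.1 and -0.305 in shp53 cells.

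Of the 16 upstream regulators few passed in pLKO.1 cells, at about the shares of all tested genes there (14.3% fell and 13.4% rose). With fulvestrant 2 fell, TFDP1, the partner of E2F factors, and LIN9 of the MuvB core, and 2 rose, CDKN1A and RBL2, which encodes p130 (0.26, adjusted p = 0.0409). In shp53 cells 9 fell and RBL2 alone rose (0.41, adjusted p = 0.00265), where 19.6% of all tested genes fell and 21.3% rose. TFDP1 was also lower in shp53 than in pLKO.1 cells when untreated, at 291, 281 and 268 against 398, 369 and 364 CPM (log2 fold change -0.43, adjusted p = 0.0127, SE 0.07), and when treated (log2 fold change -0.50, adjusted p = 0.0027, SE 0.07).

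The labelled cell type was checked by markers. Of 13 epithelial and ovarian carcinoma markers 12 had a mean over 10 CPM. The summed level of the 13 ran from 7948 to 10212 CPM in untreated and from 6288 to 11282 CPM in treated pLKO.1 libraries. In shp53 libraries it ran from 7913 to 9149 CPM untreated and from 6819 to 9411 CPM treated. With fulvestrant 1 of the 13 rose and 1 fell in each line. MUC16 changed most, from 69.1, 71.3 and 66.7 to 242, 257 and 267 CPM in pLKO.1 cells (log2 fold change 1.89). In shp53 cells it went from 112, 76 and 104 to 457, 506 and 522.5 CPM (2.34). Of 7 fibroblast markers 5 stayed under 1 CPM in every library and 2 of them were at 0. Nearly all of the summed level of that list came from THY1, a surface glycoprotein, at 225, 219 and 217 CPM in untreated and 104, 93.3 and 82.3 CPM in treated pLKO.1 libraries. THY1 fell in both lines (log2 fold changes -1.24 and -1.35). Of 6 leukocyte and 3 endothelial markers 4 and 2 stayed under 1 CPM. The others were CD68, a lysosomal protein, which rose in pLKO.1 cells from 54.5, 56.9 and 56.3 to 74.7, 77.3 and 58.4 CPM (log2 fold change 0.33, adjusted p = 0.0486, SE 0.11) and in shp53 cells by 0.34 (adjusted p = 0.0291), CD14, which fell in shp53 cells (-1.80, adjusted p = 0.0143) and not past the threshold in pLKO.1 cells (-1.35, adjusted p = 0.0605), and CDH5, which fell in pLKO.1 cells from 9.78, 9.09 and 8.88 to 5.68, 4.90 and 4.88 CPM (adjusted p = 0.000365) and not past the threshold in shp53 cells (-0.15). Transcripts of the mitochondrial genome took from 0.186% to 0.249% of counts in untreated and from 0.222% to 0.311% in treated libraries, the 2 highest being treated shp53 libraries. The part of these differences, and of those in the markers, in the results was not tested.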

How the data were processed

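The 12 libraries of PEO1 cells were made from total RNA with a stranded mRNA kit, per the labels' protocols. The authors deposited expected counts per gene, estimated by RSEM 1.3.3 and not normalized, as whole numbers, per the file headers and the submitters' processing notes. Those notes also name Bowtie2, cutadapt and MultiQC and the build GRCh37/hg19. On the tools' settings, the annotation and any use of strand in counting, nothing is given in the sources used here. Reads that fit similar transcripts are split between them by RSEM. Another 6 columns of values belong to none of the 12 libraries and were not used, and 30146 of 57773 entries had 0 counts in all 12 libraries.

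Counts were rounded, which left them as they were, and fitted in R 4.3.3 with edgeR 4.0.16 (limma 3.58.1 loaded with it): TMM factors of 0.984 to 1.056, filterByExpr over the 4 groups, leaving 15715 genes, and 1 robust quasi-likelihood model with a mean per group. Of 5 contrasts, 4 compare groups and 1 the fulvestrant responses of the lines. P-values were Benjamini-Hochberg adjusted over all tested genes, with a threshold of 0.05, and SE, an approximation, is the size of the log2 fold change over the root of its F statistic. The fit was tested on simulated data. A GC correction used a smooth trend per library (lowess, span 0.3) on the GC content of GENCODE 29 transcripts, known for 97.82% of tested genes. Alternatives were DESeq2 1.42.0, other size factors, no filter, a replicate block, fewer libraries and each library left out.

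The members, lists and tests were chosen with earlier results of these data known. Named are 11 genes whatever their values, from each class the genes of smallest and largest p in each comparison of groups, and the 6 of smallest p for the difference of responses. CCNA2, BUB1B and TTK were named only because they passed between treated lines. CDC25C, CENPE, KIF3B, RBL2, THY1, MUC16, CD14, CD68 and CDH5 were named after their values were seen. Of other lists, at most the 2 genes of smallest p in a comparison were named. The level of the gene that the hairpin targets is not reported here.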

Additional observations from a re-analysis of the deposited data

How the results depend on the processing

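The fall of the 52 genes with fulvestrant kept its direction and, for 50 to 52 genes in pLKO.1 and 52 in shp53 cells, its call under every alternative run. The number lower in treated shp53 than in treated pLKO.1 cells was 15, and it became 8 without the low-count filter, 2 when only the 6 libraries of that comparison were fitted, 44 with GC correction, 40 with GC correction and replicate block together, and 2 to 16 when 1 library was left out. With a replicate block alone it was 4. The labels number the libraries 1 to 3, but not every same-numbered pair deviated together. Their correlations were 0.456, 0.032 and 0.376 between untreated lines, with up to 0.117 for other pairs, and down to -0.631 in the other comparisons, and in none did every library correlate best with its own number, so the numbers were not treated as pairing samples. Between untreated lines, where 0 genes were called, GC correction gave 3, GC correction with replicate block 2, and a fit without treated pLKO.1 library 3 and treated shp53 library 2, chosen after the data were seen, gave 1. For the difference of the responses, at 0, GC correction gave 31 and GC correction with replicate block 21. Leaving out 1 library moved the median of the 52 between -0.27 and -0.15 for the treated lines, between -0.69 and -0.57 for fulvestrant in pLKO.1 cells and between -0.26 and -0.13 for the difference of responses, in each with the smaller difference between lines or the larger fall when treated pLKO.1 library 3 was absent, and without the 2 libraries named above the pLKO.1 median was -0.69.

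Over all tested genes, leaving out 1 library gave 126 to 319 calls for untreated lines, 456 to 2270 for treated lines, the highest without treated pLKO.1 library 3, and 0 to 7 for the difference of responses. Other moves of more than 1.5 times were these. GC correction changed 249 to 1003 for untreated lines, 1103 to 3173 for treated lines, 4363 to 6737 for fulvestrant in pLKO.1 cells and 4 to 616 for the difference of responses, and with the replicate block added the numbers were 745, 2641 and 377 for the first, the second and the last of these. A replicate block alone gave 145, 620 and 0, fitting only 6 libraries 229 for treated lines, DESeq2 45 and no filter 0 for the difference of responses, and the fit without 2 libraries 487 for untreated lines and 20 for the difference. Of 2404 values of named genes under alternatives 61 changed sign, 51 of them between untreated lines, and none of the 61 passed in either fit. Between treated lines those were CDC25B, PTTG1, CENPA and ECT2. Depth limits the genes of fewest counts, of which CDC25C was the lowest of the 52. With 3 libraries a group and no stated separate cultures, spread between cultures was not measured.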
